A study of Mus musculus with 9 samples.

Results

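The tripartite motif (TRIM) family was described in RAW264.7 cells, a mouse macrophage line established from a virus-induced tumour. Members were all genes of the deposited table whose symbol is Trim followed by a digit, which gave 59 of 26146 genes. Of these, 29 had an FPKM (fragments per kilobase of transcript and sequencing depth) of 1 or more in 3 or more of the 9 libraries and were tested together with all other genes past that filter, 11536 in total. The other 30 members were under the filter and are described by their counts.

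Poly(A) RNA was sequenced in 3 groups of 3 libraries each, all from RAW264.7 cells, with no genetic change named in the labels. The Normal group was untreated, a second group received lipopolysaccharide (LPS), the bacterial cell wall component that activates macrophages through Toll-like receptor 4, and the third received LPS and an extract used in Traditional Chinese Medicine. The labels give neither the plant, the dose nor the time, and they do not say whether replicates were separate cultures, so p-values measure only the spread between these libraries. The labels disagree on which treated group is which. By the table's column names, ET holds LPS alone and M holds LPS with extract, while the library names written beside them say the reverse. The treated groups are therefore called ET and M after their columns, and the sign of any difference between M and ET turns if the library names are right.

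Total counts lay between 55039858 and 76242718 per library. All 9 macrophage markers examined were present, with a summed FPKM of 2036 to 2683. T-cell and epithelial markers stayed under 0.06 FPKM in sum, but only 2 of 4 and 1 of 4 listed genes had values. By contrast, the granulocyte list rose from at most 0.129 in Normal to between 37.8 and 47.5 in treated libraries. Of that list S100a8 alone reached an FPKM of 1. The treated libraries also had higher sums for endothelial markers (0.768 to 0.953 in Normal and up to 3.55 in treated libraries), erythroid markers (at most 0.0737 and up to 1.44), B-cell markers (at most 0.268 and up to 1.38) and fibroblast markers (at most 0.0274 and up to 0.523). The part of these in the results below was not tested. ET replicate 3 stood apart from ET replicates 1 and 2, with a chi-square per gene of 26.2 and 21.4 against them, beside 11.3 to 16.3 for the other pairs within groups. Results that turn with that library are given with and without it.

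TRIM proteins carry a RING finger that takes ubiquitin from an E2 enzyme, one or more B-boxes and a coiled coil, followed by a C-terminal domain that selects the target. In macrophages many of them tune the pathways that run from nucleic acid sensors and Toll-like receptors to NF-kB and to type I interferon, and some are themselves induced by interferon. In the mouse a large group of them lies in a cluster on chromosome 7 that has expanded and diverged rapidly, and it includes relatives of the retrovirus restriction factor TRIM5.

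Promoter sequence is shown first, because Trim30a, with the largest change, and 4 other members called higher hold a short motif there. RefSeq promoter windows (GRCm38.p6, 250 bases before to 50 bases after each annotated start) were matched by symbol for 44 of the 59 members and for 22 of the 29 tested members. The core of the interferon-stimulated response element, a site bound by IRF factors, was searched as GAAA, any 2 bases and GAAA on both strands, and it reads TTTC, 2 bases and TTTC when it lies on the strand opposite to the gene. It was present in 9 of the 44 members with a window (20.5%), beside 1079 of all 27025 genes in the promoter table (3.99%). The stretches below run 5′ to 3′ on the gene's strand with the match in capitals, in which adjoining capitals in Trim21 and Trim26 are 2 overlapping matches.
Trim30a, minus strand, chr7:104465195-104465254: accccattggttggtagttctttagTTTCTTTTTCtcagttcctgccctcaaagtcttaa
Trim30d, minus strand, chr7:104507856-104507915: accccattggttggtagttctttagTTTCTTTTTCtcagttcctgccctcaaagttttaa
Trim12c, minus strand, chr7:104353344-104353403: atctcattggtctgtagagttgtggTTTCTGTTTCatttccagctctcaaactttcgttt
Trim5, minus strand, chr7:104288121-104288180: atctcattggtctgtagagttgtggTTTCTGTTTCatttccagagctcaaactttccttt
Trim34a, plus strand, chr7:104244442-104244486: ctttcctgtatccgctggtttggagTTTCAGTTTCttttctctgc
Trim21, minus strand, chr7:102565453-102565494: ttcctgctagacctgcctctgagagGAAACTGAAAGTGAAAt
Trim26, plus strand, chr17:36836961-36837026: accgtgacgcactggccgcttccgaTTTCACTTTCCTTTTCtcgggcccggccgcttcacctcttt

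The match began 36 bases before the annotated start in Trim30a, 41 in Trim30d, 29 in Trim12c, 49 in Trim5 and 160 in Trim26, and it lay 10 to 19 bases after the start in Trim34a and 13 to 28 bases after it in Trim21. The printed stretches of Trim30a and Trim30d were identical at 59 of 60 bases, the difference being C56T counted from the 5′ end of the Trim30a stretch. Those of Trim12c and Trim5 were identical at 57 of 60, with C44A, T45G and G57C. Over whole windows aligned without gaps, Trim30a and Trim30d were identical at 93.6% of 295 bases, whereas Trim34a and Trim34b, close relatives, were identical at 30.7% of 293. Trim12a and Trim2, which stayed near the floor of detection and at low counts respectively, also held the motif. A match is a description of letters and not a known site.

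Of the tested members with a window, 11 were called higher in the treated libraries and 5 of them held the motif (Trim12c, Trim21, Trim26, Trim30a and Trim34a). None of the 7 called lower and none of the 4 not called held it. Among the members called higher, Trim30a, Trim34a and Trim34b passed the filter through treated libraries only. Their place in this split therefore came from their treated level, and the difference between these counts was not tested. Trim25, Trim34b, Trim13, Trim46, Trim56 and Trim23 were called higher and had no match in this window, which says nothing of other windows. A looser motif of NF-kB (GGG, any 5 bases and CC, on both strands) was found in 63.6% of the members called higher, 71.4% of those called lower and 53.5% of all genes in the promoter table.

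TRIM members changed in both directions when the mean of the treated groups was set against Normal. With edgeR's quasi-likelihood test and Benjamini-Hochberg adjustment over all tested genes at 0.05, 13 members were higher and 11 lower, and 5 were not called. That is 82.8% of the 29 tested members, beside 73.5% of all tested genes. By direction, 44.8% of tested members were higher, beside 36.8% of all tested genes, and 37.9% were lower, beside 36.8%. By size, 8 members (27.6%) were called with at least a 2-fold change, beside 15.7% of all tested genes. Of these 8, Trim30a, Trim34b and Trim34a passed the filter through treated libraries only, at a mean FPKM in Normal of 0.107, 0.0865 and 0.0738. Their place among the tested members therefore came from their treated level, which raises the counts called higher and the count of 2-fold changes. The median absolute log2 change was 0.51 for the members and 0.36 for all tested genes, while the signed medians were -0.03 and -0.01. In bulk RNA, fewer cells expressing a gene and less RNA per cell cannot be told apart.

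Against Normal separately, ET had 12 members higher and 11 lower, beside 70.2% of all tested genes called in either direction, 35% higher and 35.2% lower. M had 11 higher and 10 lower, beside 70% of all tested genes called, 35.5% higher and 34.5% lower. These comparisons share the Normal libraries. The ET and M libraries together lay wholly above all Normal libraries for 11 members and wholly below them for 10, beside 65.5% of all tested genes without overlap.

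**Figure D1:**
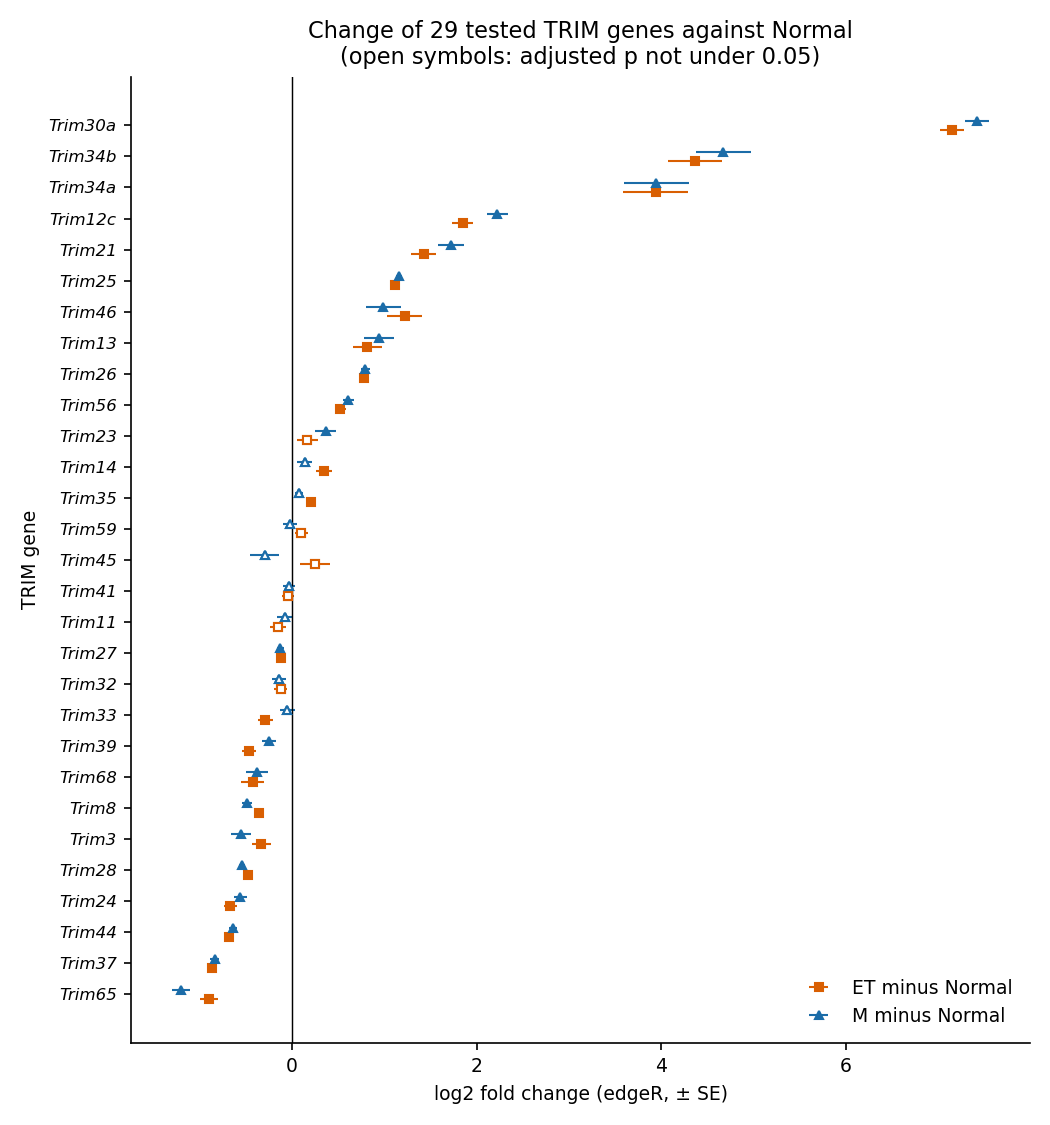
Log2 fold change ± SE (horizontal axis) of the 29 tested TRIM genes in ET (squares) and M (triangles) against Normal, ordered by the mean of both, with open symbols where the edgeR adjusted p was not under 0.05. Trim30a at 7.15 and 7.42 and the Trim34 pair near 4 stand far to the right, while the lowest gene, Trim65, lies at -0.90 and -1.20.

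The largest changes were in the chromosome 7 cluster. Of 12 cluster genes in the table, 7 were tested. Of these, 5 rose (Trim30a, Trim34b, Trim34a, Trim12c and Trim21) while Trim3 and Trim68 fell, beside 36.8% of all tested genes in each direction. The median log2 change was 2.04. Trim30a, Trim34b and Trim34a passed the filter through treated libraries only, so the count that rose and the median partly follow from the filter. The 5 genes that rose carry a PRY-SPRY domain at the C-terminus, as does Trim68, while Trim3 carries NHL repeats. From Trim34a to Trim30d the genes lie side by side between positions 104244457 and 104507849, in coordinates that equal GENCODE M21 on GRCm38, and Trim21, Trim68 and Trim3 lie outside that stretch. The deposited files do not say how reads that map to several relatives were counted, so values of the Trim30 group, of Trim34a with Trim34b and of Trim12a with Trim12c are uncertain in how they are split.

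Trim30a, which in macrophages limits NF-kB signalling by driving the loss of TAB2 and TAB3, had 0.395, 0.416 and 0.594 CPM (counts scaled to a common library size with TMM factors) in Normal. In ET it had 61.2, 62.0 and 74.4 CPM, and in M 78.2, 79.1 and 81.1 CPM. Every treated library lay above 100 times the highest Normal library, and the M libraries lay above all ET libraries. The log2 change was 7.15 ± 0.13 (SE) in ET and 7.42 ± 0.13 in M (edgeR adjusted p = 9.8e-14 and 7.0e-14), and by FPKM the gene moved from rank 27 to rank 7 among the 29 tested members.

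Trim34b had 0.205, 0.113 and 0.204 CPM in Normal, 3.13, 2.77 and 4.74 in ET, and 4.22, 4.04 and 4.92 in M. It rose by 4.36 ± 0.30 (log2 ± SE) in ET and 4.67 ± 0.30 in M (edgeR adjusted p = 3.5e-08 and 1.8e-08). Trim34a had 0.252, 0.063 and 0.305 CPM in Normal, 2.89, 2.83 and 3.49 in ET, and 3.32, 2.78 and 3.16 in M. Its ET and M libraries overlapped each other and lay far above Normal, with log2 changes of 3.94 ± 0.35 and 3.95 ± 0.35 (edgeR adjusted p = 5.7e-07 and 5.5e-07). The sizes of these folds rest on Normal levels near the floor of detection. On the log2(FPKM + 1) scale limma gave 3.82 and 4.07 for Trim30a, 1.33 and 1.54 for Trim34b, and 0.95 and 0.95 for Trim34a, in ET and M, with every call kept.

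Trim12c, a mouse relative of TRIM5, had 6.22, 7.55 and 6.21 CPM in Normal, 21.9, 22.0 and 28.4 in ET, and 30.9, 31.4 and 31.4 in M. The 3 groups did not overlap, and ET replicate 3 stood nearest to M. The change was 1.85 ± 0.11 in ET and 2.22 ± 0.11 in M (log2 ± SE, edgeR adjusted p = 1.3e-08 and 2.3e-09). Trim21, the cytosolic receptor for antibody-coated pathogens, had 5.60, 4.49 and 6.5 CPM in Normal, 14.4, 14.4 and 15.6 in ET, and 15.5, 19.3 and 19.6 in M. Treated libraries lay above Normal throughout, and M overlapped ET at 1 library. Its log2 change was 1.42 ± 0.14 in ET and 1.72 ± 0.14 in M (edgeR adjusted p = 1.2e-06 and 2.1e-07).

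The other cluster genes were under the filter. Trim30d had 0 counts in all 3 Normal libraries, 76, 34 and 62 in ET, and 69, 63 and 56 in M, which against a floor of 3 counts per Normal library is at least 21.4-fold higher in ET and at least 24.0-fold higher in M. Trim30c had 0 counts in Normal, 20, 8 and 34 in ET, and 64, 31 and 36 in M, at least 7.68-fold and at least 16.6-fold higher. Trim30b had 0 counts in Normal and 12, 0 and 9 in ET, with 35, 13 and 45 in M. Trim5 had 13, 12 and 8 counts in Normal, 19, 26 and 32 in ET, and 29, 36 and 34 in M, while Trim12a never passed 5 counts. All of these stayed under an FPKM of 0.6.

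**Figure D2:**
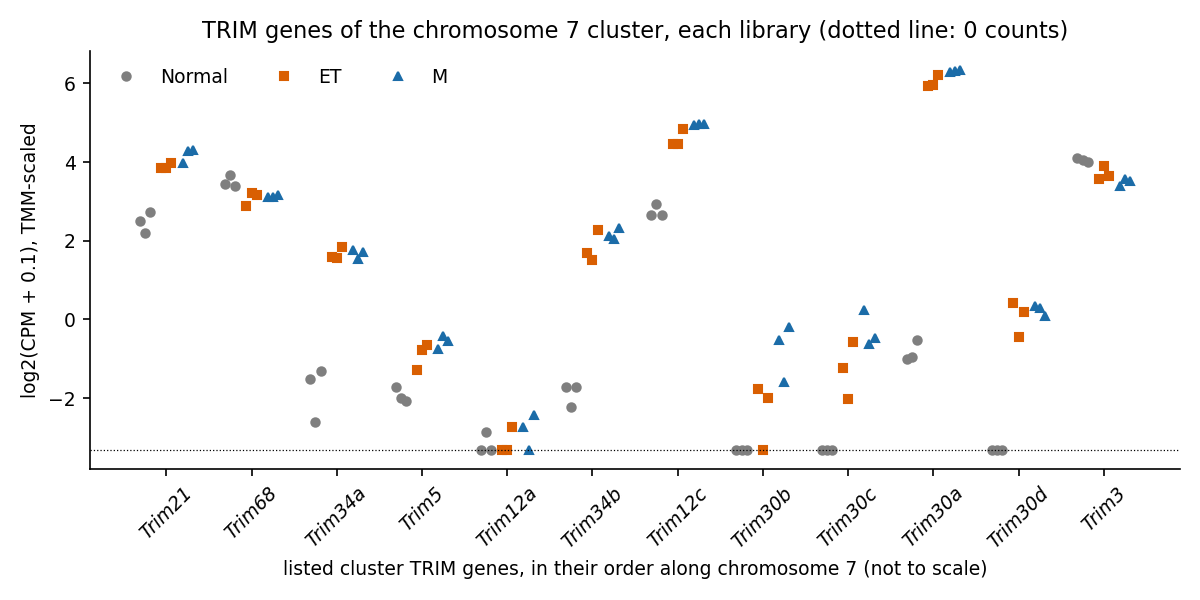
Level of the 12 listed TRIM genes of the chromosome 7 cluster in each library, as log2(CPM + 0.1) on the vertical axis, in their order along the chromosome, with circles for Normal, squares for ET and triangles for M, and a dotted line at 0 counts. Treated libraries stand above Normal for Trim21, Trim34a, Trim5, Trim34b, Trim12c, Trim30c, Trim30a and Trim30d, and below it for Trim68 and Trim3.

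Among members that act on nucleic acid sensing and interferon induction outside the cluster, Trim25 had the highest FPKM. It attaches ubiquitin chains that activate RIG-I, and it is also a target of ISG15, the ubiquitin-like modifier. Trim25 had 212, 203 and 212 CPM in Normal, 446, 460 and 451 in ET, and 463, 476 and 460 in M. The libraries within each group differed little, and every treated library was over 2 times the highest Normal library. The log2 change was 1.11 ± 0.033 in ET and 1.16 ± 0.033 in M (edgeR adjusted p = 1.0e-11 and 6.8e-12).

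Trim26, which acts on IRF3 and on the kinase adaptor NEMO, had 52.9, 59.4 and 56.9 CPM in Normal, 96.9, 95.9 and 96.8 in ET, and 94.5, 101 and 97.8 in M. ET and M overlapped, and both lay above Normal by 0.77 ± 0.047 and 0.79 ± 0.047 (log2 ± SE, edgeR adjusted p = 1.3e-08 and 1.0e-08). Trim13, a ligase anchored in the endoplasmic reticulum, had 3.61, 4.74 and 3.43 CPM in Normal, 6.99, 7.47 and 6.34 in ET, and 8.54, 6.41 and 7.79 in M. It rose by 0.82 ± 0.16 in ET and 0.94 ± 0.16 in M (edgeR adjusted p = 0.00060 and 0.00019). Trim13 overlaps Dleu2 on the opposite strand over 3108 bases. The libraries were made with a strand-marking (dUTP) kit, but no source used here gives the strand setting of the counting, so reads of such pairs may be mixed.

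Trim56, a regulator of the cGAS and STING pathway, went from 60.6, 60.0 and 56.4 CPM in untreated cells to a mean of 84.7 ± 4.0 (SD, n = 3) in ET and 89.9 ± 7.2 in M (edgeR adjusted p = 6.0e-06 and 1.4e-06). Trim23, which carries an ARF GTPase domain, was called higher in M (log2 0.36 ± 0.11, edgeR adjusted p = 0.012) and not in ET (0.16 ± 0.11, adjusted p = 0.21), and the call in M was lost without M replicate 1 (adjusted p = 0.065). Trim14, a RING-less mitochondrial adaptor for antiviral signalling that overlaps the abundant gene Nans on the opposite strand, was called higher in ET (0.35 ± 0.082, adjusted p = 0.0022) and not in M (0.14 ± 0.082, adjusted p = 0.15). Trim35 was likewise called in ET (0.20 ± 0.041, adjusted p = 0.00073) and not in M (0.076 ± 0.041, adjusted p = 0.12). Its M libraries nonetheless lay above all Normal libraries, and it was called higher in M when ET replicate 3 was left out of the fit. The differences between M and ET themselves were not called for these 3 genes, at adjusted p = 0.30 for Trim23, 0.14 for Trim14 and 0.077 for Trim35.

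Other regulators of the same pathways fell. Trim65, which activates the RNA sensor MDA5, had 21.3, 20.7 and 19.7 CPM in Normal, 10.7, 11.5 and 10.8 in ET, and 8.74, 10.1 and 8.06 in M, the largest fall among the tested members. Its log2 change was -0.90 ± 0.098 in ET and -1.20 ± 0.099 in M (edgeR adjusted p = 3.4e-06 and 2.5e-07). Trim8, a ligase for TAK1 in TNF and IL-1 signalling, had 124, 120 and 122 CPM in Normal, 96.2, 95.0 and 94.8 in ET, and 79.1, 91.1 and 91.2 in M. All treated libraries were below Normal, by a log2 change of -0.36 ± 0.051 in ET and -0.49 ± 0.051 in M (edgeR adjusted p = 4.3e-05 and 2.5e-06).

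Trim27, which acts on TBK1 and on endosomal sorting, had 132, 129 and 131 CPM in Normal, 121, 121 and 119 in ET, and 115, 124 and 120 in M. Its libraries did not overlap Normal, but the fall was small, at -0.12 ± 0.037 in ET and -0.13 ± 0.037 in M (log2 ± SE, edgeR adjusted p = 0.011 and 0.0079). In ET the call was lost without Normal replicate 1 (adjusted p = 0.059). Trim38, a regulator of TAB2 and of sensor stability, was nearly silent, with 0, 8 and 8 counts in Normal, 20, 12 and 0 in ET, and 0 in all M libraries.

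The TIF1 genes, whose proteins read chromatin through a PHD finger and bromodomain and act in transcription, were all called lower in the mean of the treated groups. That is 3 of 3 tested, with a median log2 change of -0.51, beside 36.8% of all tested genes called lower. The count ran from 2 to 3 over 17 settings because of Trim33. Trim28 (KAP1), the corepressor that KRAB zinc finger proteins recruit to silence retroelements, had the highest FPKM of all members in every group. It had 528, 523 and 544 CPM in Normal, 383, 379 and 385 in ET, and 364, 360 and 372 in M. The 3 groups did not overlap, and the log2 change was -0.48 ± 0.031 in ET and -0.54 ± 0.031 in M (edgeR adjusted p = 2.3e-08 and 6.2e-09). Trim28 overlaps Zbtb45 on the opposite strand over 5933 bases, a gene with at most 2542 counts in a library.

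Trim24, a coregulator of nuclear receptors, had 29.6, 30.9 and 29.8 CPM in Normal, 19.0, 17.7 and 20.1 in ET, and 21.4, 20.7 and 19.2 in M. It fell by a log2 change of -0.67 ± 0.072 in ET and -0.56 ± 0.072 in M (edgeR adjusted p = 3.0e-06 and 1.5e-05). Trim33, a ligase of SMAD4 that also binds macrophage enhancers, had 95.3, 91.6 and 93.7 CPM in Normal, 72.9, 67.5 and 88.9 in ET, and 94.1, 85.8 and 90.6 in M. ET replicates 1 and 2 were low while ET replicate 3 lay among the M libraries. Trim33 was called lower in ET (-0.29 ± 0.080, edgeR adjusted p = 0.0060, and -0.40 without ET replicate 3) and not in M (-0.052 ± 0.080, adjusted p = 0.58).

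The fourth bromodomain member, Trim66, was under the filter and moved the other way. It had 12, 6 and 0 counts in Normal, 141, 151 and 178 in ET, and 128, 156 and 110 in M. All treated libraries lay well above Normal at an FPKM that never passed 0.269.

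Other members with a high FPKM in Normal also fell. Trim37, the MATH-domain ligase of peroxisome and centriole control, had 159, 158 and 153 CPM in Normal, 80.6, 88.2 and 88.7 in ET, and 88.7, 84.8 and 89.4 in M. Treated libraries lay near 0.55 times Normal, with log2 changes of -0.87 ± 0.044 and -0.84 ± 0.044 (edgeR adjusted p = 2.1e-09 and 2.9e-09). Trim44, a RING-less member with a deubiquitinase-like zinc finger, had 185, 189 and 189 CPM in Normal, 112, 112 and 126 in ET, and 118, 123 and 120 in M. It fell by a log2 change of -0.69 ± 0.046 in ET and -0.64 ± 0.046 in M (edgeR adjusted p = 2.9e-08 and 5.7e-08).

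Trim46, which bundles axonal microtubules in neurons, rose from 2.82, 3.63 and 3.97 CPM in untreated cells to 8.32, 7.91 and 8.02 in ET and 5.36, 6.32 and 9.02 in M. The M libraries spread around the ET values, and the log2 change was 1.22 ± 0.19 in ET and 0.99 ± 0.19 in M (edgeR adjusted p = 9.5e-05 and 0.00053). Trim46 overlaps Krtcap2 on the opposite strand over 344 bases. Trim39, Trim68 and Trim3 were called lower in the mean of the treated groups, by log2 changes of -0.36, -0.40 and -0.44. In M, Trim39 lost its call without Normal replicate 2 (adjusted p = 0.067) or M replicate 1 (0.051) and Trim68 without Normal replicate 2 (0.078), and in ET Trim3 lost it without ET replicate 1 (0.061).

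Trim59, a membrane-anchored member, was not called. It had 45.5, 45.3 and 49.6 CPM in Normal, 46.4, 49.1 and 54.9 in ET, and 49.0, 43.5 and 45.7 in M, with all groups overlapping. Trim11, Trim32, Trim41 and Trim45 were not called either, with log2 changes of the treated mean between -0.13 and -0.03. With library totals in place of TMM factors, Trim11 and Trim32 were called lower and Trim14, Trim23 and Trim35 were no longer called.

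**Figure D3:**
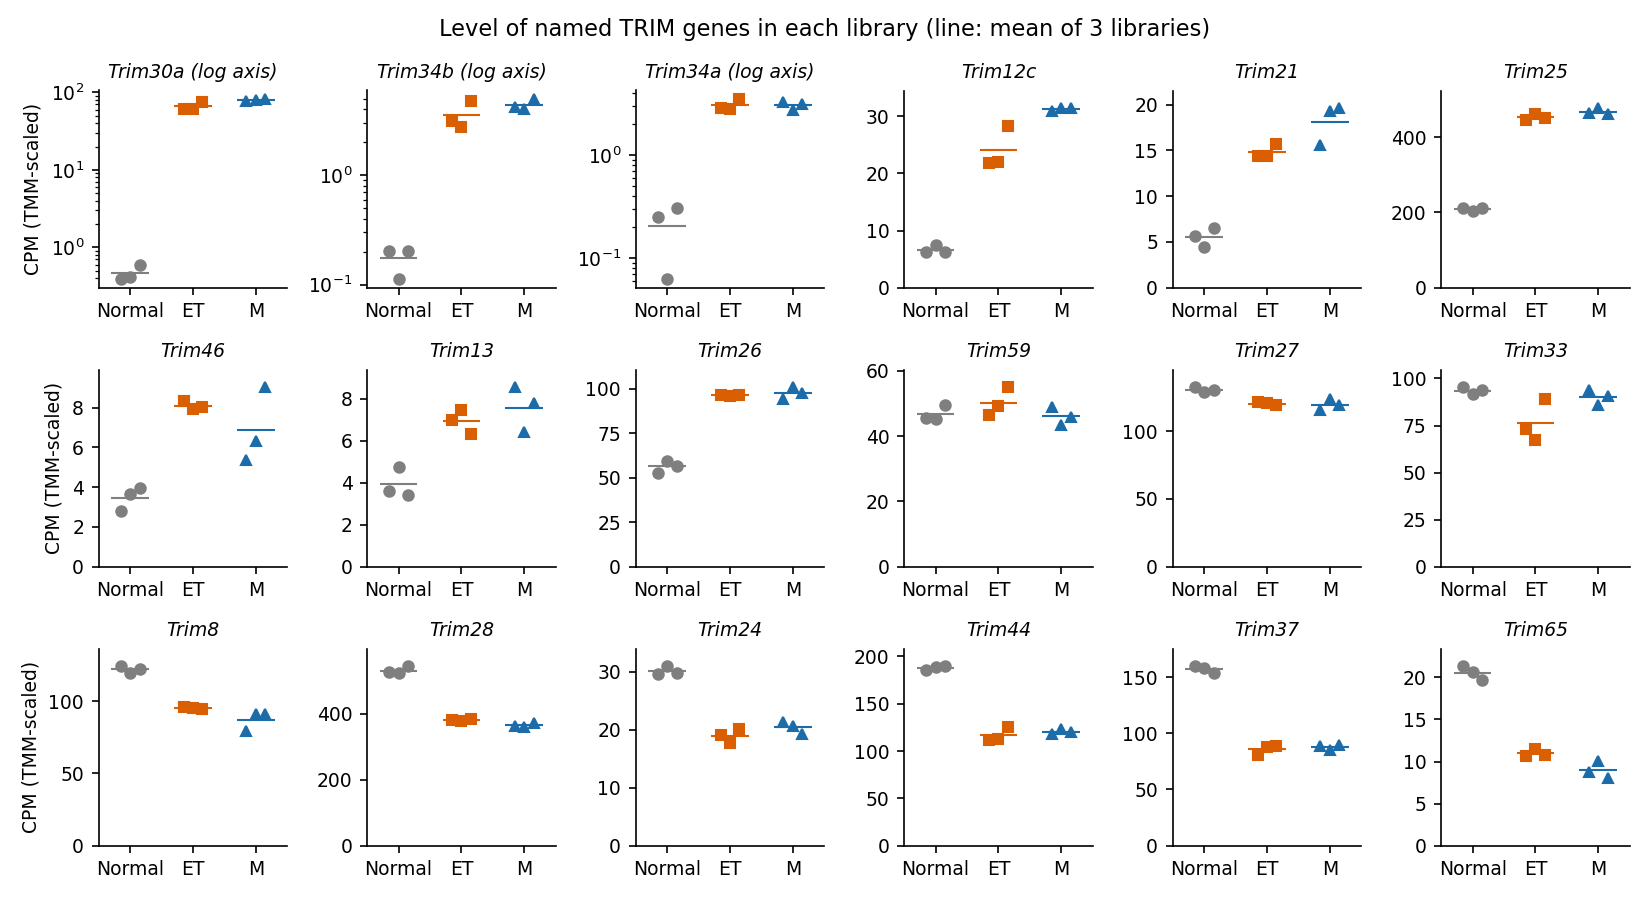
TMM-scaled CPM (vertical axes) of 18 TRIM genes in each Normal (circles), ET (squares) and M (triangles) library, with a line at each group's mean and a log axis for Trim30a, Trim34b and Trim34a only. Groups of treated libraries lie clear of Normal except for Trim59 and for the M libraries of Trim33. ET replicate 3 of Trim33 stands at 88.9, beside 72.9 and 67.5 in the other ET libraries and 91.6 in the lowest Normal library.

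Although single members moved by up to 171-fold, the family's total moved little. TRIM genes took 0.201% to 0.211% of all counts in every library, and their summed FPKM was between 394 and 403 in Normal, between 382 and 395 in ET and between 379 and 391 in M. What changed was the makeup. Trim28 held 31.0 ± 0.41% (SD, n = 3) of the summed FPKM in Normal, 21.7 ± 0.29% in ET and 20.7 ± 0.32% in M. Trim25 went from 8.83 ± 0.19% to 18.6 ± 0.42% and 19.1 ± 0.40%. The share of Trim44 went from 8.08% to 4.87% in ET and 5.03% in M, and that of Trim37 from 5.28% to 2.81% and 2.86%. By FPKM, which allows comparison between genes, Trim28 and Trim25 were first and second in each group, at 124 and 35.1 in Normal and 79.8 and 73.7 in M.

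**Figure D4:**
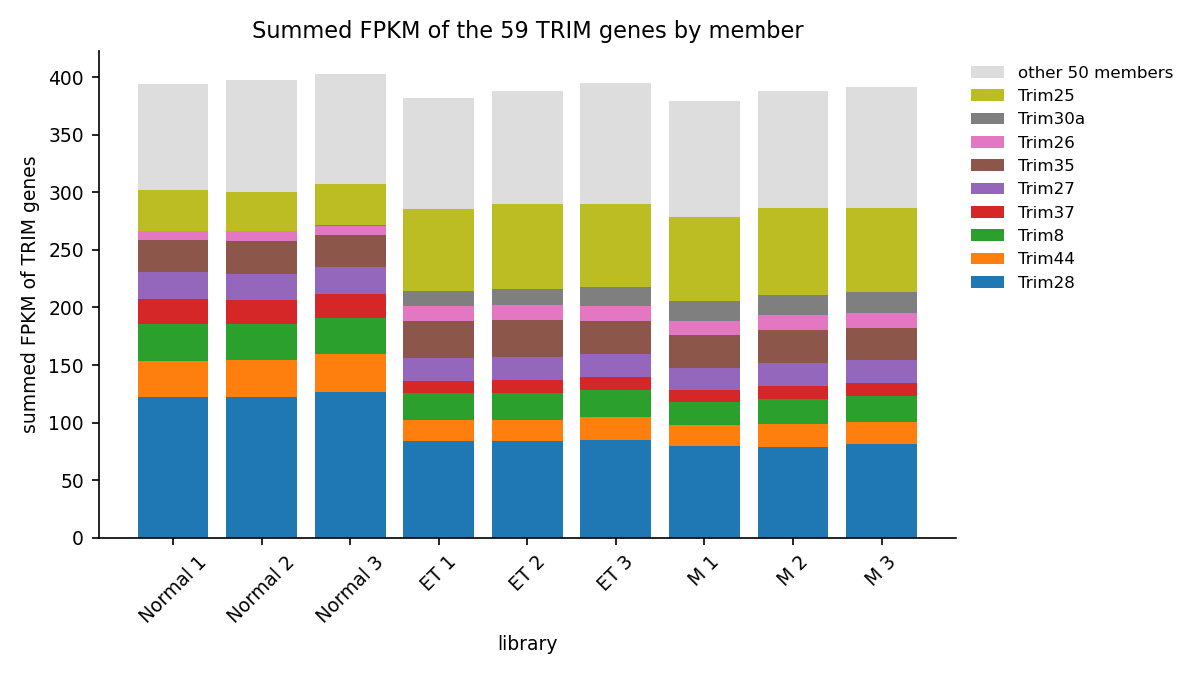
Summed FPKM of the 59 TRIM genes in each library (bar height), split by member. The bars stay between 379 and 403 while the Trim28 part shrinks and the Trim25 part grows in all 6 treated libraries, and Trim30a appears in them.

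Among the 30 members under the filter, those with an FPKM over 0.5 in some library were Trim36 (highest value 0.751), Trim16 (0.743), Trim30c (0.572) and Trim43c (0.508). Treated libraries lay above all Normal libraries for Trim2, Trim5, Trim30c, Trim30d, Trim43b and Trim66, which were picked out after their values were seen. Among all tested genes 65.5% did not overlap in either direction. The share among all genes under the filter is not given here, so this separation does not set these members apart. Trim2, an NHL-repeat member, had 131, 98 and 60 counts in Normal and 175 to 235 in treated libraries. Trim43b had 0, 3 and 0 counts in Normal and 15 to 69 in treated libraries. Members known for muscle, such as Trim54, Trim55, Trim63 and Trim72, stayed at 65 counts or fewer in every library.

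Between the treated groups, the share of TRIM genes called was below the background with edgeR and above it by some other measures. Only Trim12c was called, higher in M by 0.37 ± 0.11 (log2 ± SE, edgeR adjusted p = 0.049), and no member was called lower. That is 1 of 29 tested members (3.45%), beside 9.08% of all tested genes, of which 4.97% were higher and 4.12% lower. At an unadjusted edgeR p under 0.05 there were 10 members (34.5%), beside 25.4% of all tested genes. DESeq2 called 3 higher (Trim12c, Trim30a and Trim33) and 3 lower (Trim35, Trim45 and Trim65), beside 14.6% of all tested genes in either direction. Both limma fits called no member, and their share over all genes is not given here. The M and ET libraries did not overlap for 10 members, 4 higher in M (13.8%) and 6 lower (20.7%), beside 28.7% of all tested genes in either direction. The median absolute log2 difference was 0.13 for the members and 0.10 for all tested genes. Whether the members stood apart from the background was not tested.

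The Trim12c call was close to the threshold. Its adjusted p ranged from 0.0043, without ET replicate 3, to 0.17, without ET replicate 1, and it was over 0.05 in 15 settings, among them the omission of any M library. Without ET replicate 3 the difference was 0.50 ± 0.095, and Trim30a (0.36 ± 0.071, adjusted p = 0.0050), Trim33 (0.35 ± 0.051, adjusted p = 0.00085) and Trim35 (-0.18 ± 0.035, adjusted p = 0.0054) were called as well, beside 15.8% of all tested genes in either direction. With all libraries the values were 0.27 ± 0.080 for Trim30a (adjusted p = 0.056), 0.24 ± 0.080 for Trim33 (adjusted p = 0.084) and -0.13 ± 0.041 for Trim35 (adjusted p = 0.077). Among the members with the highest FPKM, the M libraries lay below all ET libraries for Trim28 (-0.07 ± 0.031, adjusted p = 0.20), Trim8 (-0.13 ± 0.051, adjusted p = 0.14) and Trim35, and above them for Trim25 (0.04 ± 0.032, adjusted p = 0.44). None of these differences was called with all libraries.

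**Figure D5:**
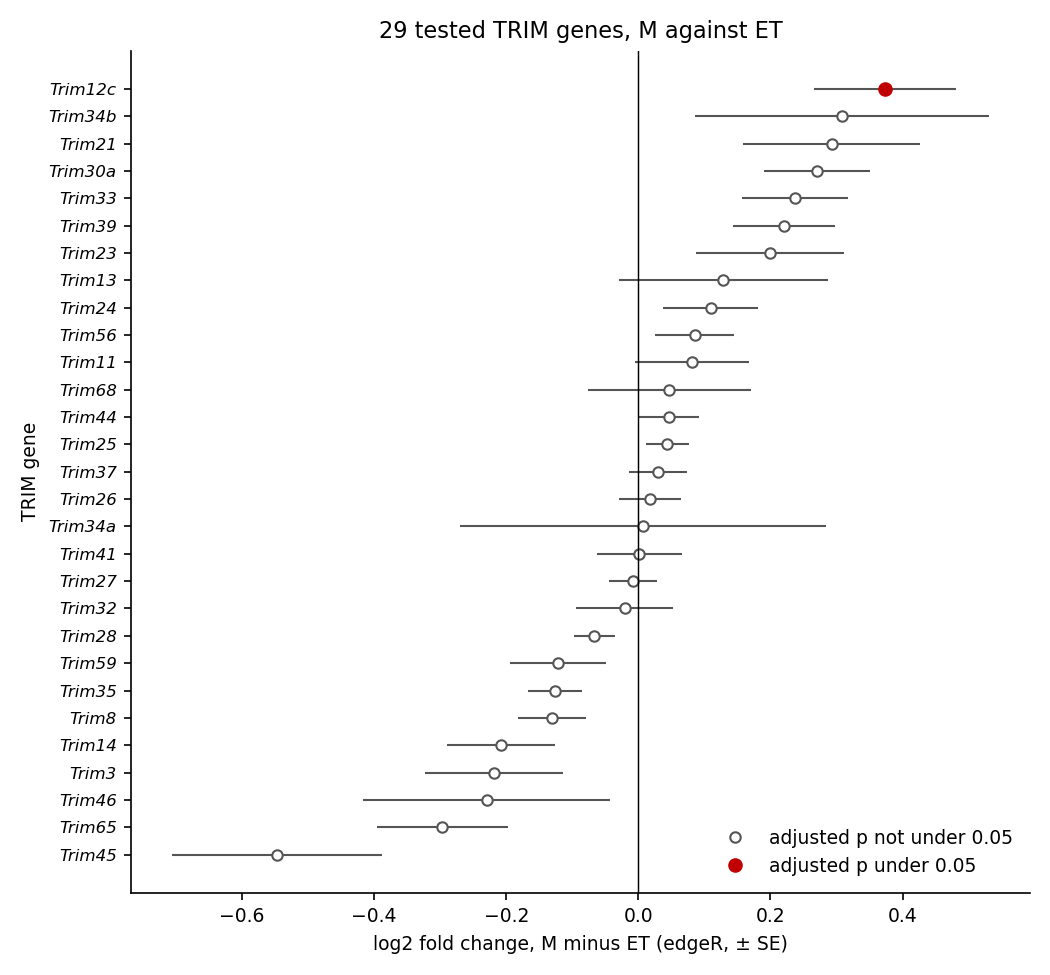
Log2 fold change of M minus ET ± SE (horizontal axis) for the 29 tested TRIM genes, with a filled symbol where the edgeR adjusted p was under 0.05. Trim12c at 0.37 is the single filled symbol, and Trim45 at -0.55 lies farthest to the left with adjusted p = 0.052.

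Genes whose proteins TRIM ligases act on or work with were counted from lists, by their RNA only. Over all tested genes the median log2 change was -0.01 and 36.8% were called in each direction. All 5 ISG15 conjugation genes rose in the mean of the treated groups, with a median log2 change of 3.06. Isg15, the modifier, went from 0.585 ± 0.14 CPM (SD, n = 3) in untreated cells to 57.8 ± 2.8 in ET and 80.5 ± 5.1 in M. Usp18, which removes ISG15, went from 3.08 to 118 and 138, Herc6, the mouse ISG15 ligase, from 4.76 to 35.7 and 44.3, and Ube2l6, its E2 enzyme, from 6.48 to 30.1 and 33.4. In M against ET, 3 of the 5 were higher (Isg15, Herc6 and Uba7), a count that ran from 1 to 4 over 18 settings.

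Of 19 tested nucleic acid sensing and signalling genes, 8 rose and 6 fell, with a median log2 change of -0.03. Irf7, the interferon-inducing transcription factor, went from 4.69 ± 0.48 to 392 ± 12 CPM in ET and 488 ± 12 in M. The sensor genes Ddx58 (RIG-I, the target of Trim25), Ifih1 (MDA5, the target of Trim65) and Dhx58 had log2 changes of 3.73, 4.45 and 3.05. In M against ET, 5 genes of this list were higher, beside 4.97% of all tested genes, and 9 without ET replicate 3, beside 9.72% of all tested genes. Tab2 and Tab3, picked out because Trim30a acts on their proteins, had log2 changes in RNA of -0.47 (edgeR adjusted p = 2.1e-07) and -0.11 (adjusted p = 0.26). RNA does not show loss of these proteins, which were not measured.

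In the type I interferon axis 5 of 8 tested genes rose and 3 fell. Irf9, a subunit of the interferon-activated factor, rose by 1.79 and Jak1, a receptor kinase, by 0.57 on the log2 scale, while Ifnar2, a receptor chain, had -0.66. Ifnb1 was not tested, its mean level being 0 CPM in Normal, 0.081 in the ET libraries and 0.19 in those of M. Of 11 tested E2 enzymes 5 rose and 3 fell, the latter count running from 1 to 5 over 17 settings. Ube2d1, a common partner of RING ligases, had a log2 change of -1.15, and Ube2e2 rose by 1.39, Ube2v1 by 0.27 and Ube2v2 by 0.39.

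Of 10 tested partners of Trim28 in silencing, 7 fell and 1 rose, with a median log2 change of -0.23. Dnmt1, the maintenance DNA methyltransferase, went from 863 ± 9.8 CPM in untreated cells to 446 ± 9.7 in ET and 410 ± 5.4 in M. Cbx5 (HP1 alpha) went from 311 to 137 and 146, and Uhrf1 from 333 to 223 and 205. Setdb1, the histone methyltransferase that Trim28 recruits, rose, from 130 ± 6.9 to 197 ± 7.8 in ET and 307 ± 1.5 in M, and was higher in M than in ET by 0.64 on the log2 scale (edgeR adjusted p = 3.1e-06). Dnmt1 was lower in M than in ET by a log2 change of -0.12 (edgeR adjusted p = 0.027).

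Of the family proteins under other names, only Pml was tested. Pml, the TRIM protein that builds nuclear bodies, rose from 57.5 ± 2.2 CPM in untreated cells to 108 ± 4.9 in ET and 114 ± 7.6 in M (log2 0.95 for the mean of both). Mid1, a microtubule-bound ligase, was under the filter at 5.36, 4.41 and 4.95 CPM, and Mid2 was listed at 0 in Normal and under 0.2 CPM in the treated groups.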

How the data were processed

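Gene expression of RAW264.7 cells was profiled in 9 libraries made from poly(A) RNA. Per the submitters' processing notes, cutadapt 1.9, HISAT2 2.2.1, StringTie 2.1.6, DESeq2 and edgeR were used. The deposited table holds whole-number counts per gene, whose counting tool and strand setting are not given in the sources used here, and FPKM values which, per the file headers, are the authors' length- and depth-normalised levels. The build is not given either, but coordinates equalled GENCODE M21 (GRCm38) for 23547 of 26146 genes (90.1%) and for 50 of 59 members.

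Each sample's label names its table column. Genes at an FPKM of 1 or more in 3 or more of the 9 libraries were fitted on counts with edgeR 4.0.16 (R 4.3.3), TMM factors and 1 fit of 3 groups, with contrasts of ET and of M against Normal, of M against ET, and of the treated mean (ET and M weighted equally) against Normal. CPM are counts divided by the TMM-scaled library size of the tested genes. Alternatives used limma 3.58.1 on log2(FPKM + 1) and log2(FPKM + 0.1), computed here from the deposited FPKM, and DESeq2 1.42.0. Simulated data were used to test edgeR with TMM factors, DESeq2 and limma on log2(CPM + 1), for M against ET only and with a small part of the genes changed. The other fits and the comparisons with Normal were not tested in that way. Floors of 3 counts per library cover counting error only, and total counts of 55039858 to 76242718 set the precision.

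Values in every library are given for up to 12 members called in the treated mean with the largest absolute change and no overlap with Normal, for called members in M with ET, and for a panel of 12 (Trim8, Trim12c, Trim21, Trim24, Trim25, Trim27, Trim28, Trim30a, Trim30d, Trim33, Trim38 and Trim59). Of each list up to 4 genes with the smallest p are named. In the interferon list 1 gene that this rule names is not reported here. Members and lists were chosen with earlier results of these data known. Same-numbered libraries did not deviate together (correlations of -0.050 to 0.076), so replicate numbers were not used as pairs. Protein sequences were not used here.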

Additional observations from a re-analysis of the deposited data

Results flagged for a closer look

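Trim12c differed between the treated groups, with a log2 change of 0.3735 in M against ET (edgeR adjusted p = 0.049, higher in 3 of 3 M libraries than in any ET library). The settings under which that call was lost are given in the next part.

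Trim45, a member that restrains MAPK-dependent transcription, had its 3 ET libraries above the Normal mean of 5.79 CPM (5.94, 6.56 and 8.12) and its 3 M libraries below it (4.01, 5.24 and 4.87). The Normal libraries themselves had 5.70, 5.27 and 6.41 CPM, so ET overlapped Normal while M lay below it. Neither group was called against Normal (edgeR adjusted p = 0.18 for ET and 0.11 for M). The log2 difference of M from ET was -0.5468 (edgeR adjusted p = 0.052, and 0.11 without ET replicate 3). Trim45 was called lower in M with relative log expression factors, library totals, upper quartile factors and DESeq2 (-0.55, adjusted p = 0.012).

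Trim16, a RING-less member of damaged-membrane autophagy that was under the filter, showed the same pattern. Its ET libraries had 231, 163 and 201 counts and its M libraries 65, 108 and 105, beside 105, 216 and 148 in Normal. In the fit without the filter the log2 difference of M from ET was -1.063 (edgeR adjusted p = 0.062). Neither group was called against Normal in that fit (edgeR adjusted p = 0.14 for ET and 0.15 for M). With filterByExpr the difference was called (adjusted p = 0.030).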

How the results depend on the processing

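No refitted alternative reversed a called change of a tested member. Over the 4 comparisons, 59 of 69 such calls held in every refit that tested the gene. The exceptions were Trim12c in M with ET (15 settings, adjusted p up to 0.17), Trim33 (8, up to 0.12), Trim23 (8, up to 0.15), Trim35 (4, up to 0.18) and Trim14 (3, up to 0.069) in the treated mean, Trim23 (3, up to 0.068), Trim39 (2, up to 0.067) and Trim68 (1, 0.078) in M with Normal, and Trim27 (1, 0.059) and Trim3 (1, 0.061) in ET with Normal. Limma on log2(FPKM + 1) also gave smaller values for Trim21 in ET (0.94) and Trim46 in ET (0.65), both still called. The number of members tested changed with the filter, to 59 with none, 44 with filterByExpr and 17 with an FPKM minimum of 5. In ET with Normal, 22 of 59, 21 of 44 and 7 of 17 were called higher under these filters. Called lower were 6 of 17 at FPKM 5 and 4 of 29 with a 1.5-fold minimum. In M with Normal, 18 of 59, 18 of 44 and 5 of 17 were higher. Lower in M were 5 of 17 at FPKM 5 and 3 of 29 at 1.5-fold. In the treated mean they were 22, 22 and 7 higher, and 6 and 4 lower, of the same numbers tested. Shares of all genes called under these settings are not given here, so these counts do not set the members apart. In M with ET, the count higher was 0 with library totals, upper quartile factors, no filter, FPKM 5, filterByExpr, both limma fits, adjusted p under 0.01 and 1.5-fold, 3 with DESeq2, 2 with the 6 libraries compared, and 0 to 3 when leaving out each library in turn. The count lower was 1 with relative log expression factors, 1 with library totals, 2 with upper quartile factors, 1 with filterByExpr, 3 with DESeq2 and 0 to 1 when leaving out each library. The cause was not tested. With the replicate number as a block, 12 members were higher and 11 lower in ET, 11 and 10 in M, 13 and 11 in the treated mean, and 1 higher in M with ET, which was Trim30a (adjusted p = 0.037) in place of Trim12c (0.061). Scaling moved the median of all genes by at most 0.092 in size on the log2 scale.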

Other observations

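The deposited gene annotation gave the zinc ion binding term to 56 of the 59 members, protein ubiquitination to 48 and the innate immune response to 29, beside 1.3% of all genes for the last. Of the 15 tested members with the innate immune term, 9 were higher and 3 lower in the mean of the treated groups, beside 36.8% of all tested genes in each direction. Of the 14 without it, 4 were higher and 8 lower. Counts were more even for protein ubiquitination, with 9 higher and 8 lower of 22 tested members, and for zinc ion binding, with 12 and 10 of 27. Other terms leaned higher, with 7 higher and 4 lower of 15 for ubiquitin protein ligase activity. The counts were 6 and 3 of 10 for positive regulation of NF-kB, and 3 and 0 of 4 for defense response to virus. Trim30a, Trim34b and Trim34a were tested through their treated level only, which raises the count higher wherever they fall. The differences between these counts were not tested.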
